A study of Mus musculus with 6 samples.

Results

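Guanylate-binding proteins (GBPs) are large GTPases of the dynamin superfamily that are made when cells are exposed to interferon. The family was defined by gene symbol, as Gbp followed by a number and nothing else, and 9 of the 18280 genes in the expression table met this rule: Gbp2, Gbp3, Gbp4, Gbp5, Gbp6, Gbp7, Gbp8, Gbp9 and Gbp10. Their transcripts were measured in whole ovaries from 3 Dennd1a transgenic mice (genotype label Dennd1aTG, here TG) and from 3 wild-type mice (WT). The ovaries of all 6 mice were collected 44 h after an injection of PMSG (pregnant mare serum gonadotropin), which acts like follicle-stimulating hormone (FSH). The promoter and cell type of the transgene, the number of founder lines, the strain and the age of the animals are not given in the sources used here. The labels count 3 animals per genotype, so replicates are animals. The series asks how the transgene alters the ovary's response to FSH, and the comparison here asks how the GBP transcripts differ between the genotypes. A gene that fell or rose had a lower or higher level in TG ovaries and passed the test described below.

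Interferons bind receptors on the cell surface and activate JAK kinases, which phosphorylate STAT proteins. STAT dimers bind the gamma-activated sequence (GAS), and a complex with STAT2 and IRF9 binds the interferon-stimulated response element (ISRE). GBPs induced in this way assemble on the vacuoles and membranes of intracellular bacteria and parasites, break them open and help to start inflammasome signalling. They act together with another family of interferon-induced GTPases, the immunity-related GTPases (IRGs). Macrophages and endothelial cells are well-known sources of GBPs, and both cell types occur in the ovary.

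The mouse genes lie in a pair of clusters, and 4 of the 9 members had a promoter in the RefSeq promoter table (build GRCm38.p6), all of them in the cluster of chromosome 3. These promoters are shown because the genes are known interferon targets and 3 of the 4 fell in TG. Each sequence is on the plus strand and covers 250 bases before and 50 after an annotated transcription start. Capitals mark matches to the ISRE pattern (GAAA, any 2 bases, GAAA), searched on both strands and found here as its reverse complement, and to the GAS pattern (TTC, any 3 bases, GAA), which reads the same on both strands.
Gbp2 (chr3:142620413-142620712): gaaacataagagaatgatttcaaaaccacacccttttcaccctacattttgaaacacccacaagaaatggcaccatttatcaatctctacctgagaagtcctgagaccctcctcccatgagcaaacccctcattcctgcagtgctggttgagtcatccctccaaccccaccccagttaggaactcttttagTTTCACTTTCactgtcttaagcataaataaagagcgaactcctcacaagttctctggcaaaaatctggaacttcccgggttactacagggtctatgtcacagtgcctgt
Gbp3 (chr3:142559794-142560093): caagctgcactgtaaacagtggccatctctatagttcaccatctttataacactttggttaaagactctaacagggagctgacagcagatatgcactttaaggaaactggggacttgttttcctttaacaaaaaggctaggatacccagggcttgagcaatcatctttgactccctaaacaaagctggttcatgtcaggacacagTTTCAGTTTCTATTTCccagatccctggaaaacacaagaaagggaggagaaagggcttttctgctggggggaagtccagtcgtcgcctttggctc
Gbp5 (chr3:142496684-142496983): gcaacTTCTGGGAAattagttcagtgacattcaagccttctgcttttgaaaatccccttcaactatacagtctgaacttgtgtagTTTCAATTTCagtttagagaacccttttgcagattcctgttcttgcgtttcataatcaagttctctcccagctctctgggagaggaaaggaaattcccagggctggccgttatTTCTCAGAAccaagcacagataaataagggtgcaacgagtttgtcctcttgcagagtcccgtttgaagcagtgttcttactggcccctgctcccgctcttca
Gbp7 (chr3:142530086-142530385): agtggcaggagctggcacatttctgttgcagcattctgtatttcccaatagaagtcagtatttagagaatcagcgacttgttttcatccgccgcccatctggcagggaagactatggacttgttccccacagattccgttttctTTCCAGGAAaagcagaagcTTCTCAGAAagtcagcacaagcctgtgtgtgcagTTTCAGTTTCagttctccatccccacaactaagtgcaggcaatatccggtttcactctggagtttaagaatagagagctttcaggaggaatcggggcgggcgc
The ISRE pattern was found in all 4 of these windows, while 3.44% of the 32851 promoter windows in the table held it. In Gbp2, Gbp3 and Gbp7 it began 59, 45 and 53 bases before the start site, and in Gbp5 it began 165 bases before. Gbp3 held 2 overlapping matches, TTTCAGTTTC and TTTCTATTTC. The GAS pattern was found at 2 places each in Gbp5 and Gbp7 and at 0 places in the windows of Gbp2 and Gbp3, against 8.30% of all windows with at least 1 match. A further Gbp3 window, at an annotated start downstream, held neither pattern. A match of letters is a description and does not show binding.

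Libraries held between 17075484 and 18516171 estimated counts, and edgeR tested 14124 genes. The level of Dennd1a itself was 580.0 ± 8.97 CPM (counts scaled to a common library size) in TG ovaries against 44.5 ± 4.91 CPM in WT ovaries (SD, n = 3 each), so each library carried the Dennd1a level that its label calls for. Granulosa markers, such as Inha at 3990 CPM in TG against 3983 CPM in WT, theca and oocyte markers were present, and edgeR called 0 of 6, 0 of 5 and 0 of 6 of them. DESeq2 called 1 of the theca markers, Cyp17a1, an enzyme of androgen synthesis, at 585.7 ± 120.5 CPM in TG against 354.1 ± 57.1 CPM in WT (adjusted p = 0.115 in edgeR). TG replicate 2 stood apart in adipocyte markers (summed level 171 CPM against 15.4 to 33.9 CPM elsewhere) and WT replicate 3 in oviduct markers (53.6 CPM against 8.15 to 15.9 CPM elsewhere). Of the 7 family members that passed the test below, 6 also passed with both of these libraries left out. Gbp10 did not.

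Transcripts of the GBP family were about 3-fold less abundant in TG than in WT ovaries. Summed over the 9 genes, the level was 42.6, 36.6 and 46.4 FPKM (a fragment level corrected for transcript length and library size) in TG replicates 1 to 3 and 138.5, 102.4 and 136.7 FPKM in WT replicates 1 to 3. The group means of the sum were 41.9 ± 4.96 FPKM in TG and 125.9 ± 20.4 FPKM in WT (SD, n = 3 each), and the groups did not overlap. In edgeR's quasi-likelihood test, with Benjamini-Hochberg adjustment over all tested genes and a threshold of 0.05, 7 of the 9 members fell, 0 rose and 2 did not pass. One of the 7, Gbp10, passed the filter on low counts only through its WT libraries, and of the other 8 members 6 fell. Over all tested genes, 1.02% passed in the lower direction and 0.0354% in the higher. All 9 members had log2 fold changes (TG over WT) below 0, with a median of -1.20 and a range of -2.38 to -0.53, while the median over all tested genes was 0.00 and 49.3% of them were below 0. For 8 of the 9 members every TG library lay below every WT library, as for 5.05% of all tested genes. Gbp10, which the filter kept only through its WT libraries, is among these 8 and among the 9 below 0. In whole-ovary RNA, fewer cells of a type that makes GBPs and less GBP RNA per cell cannot be told apart.

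**Figure D1:**
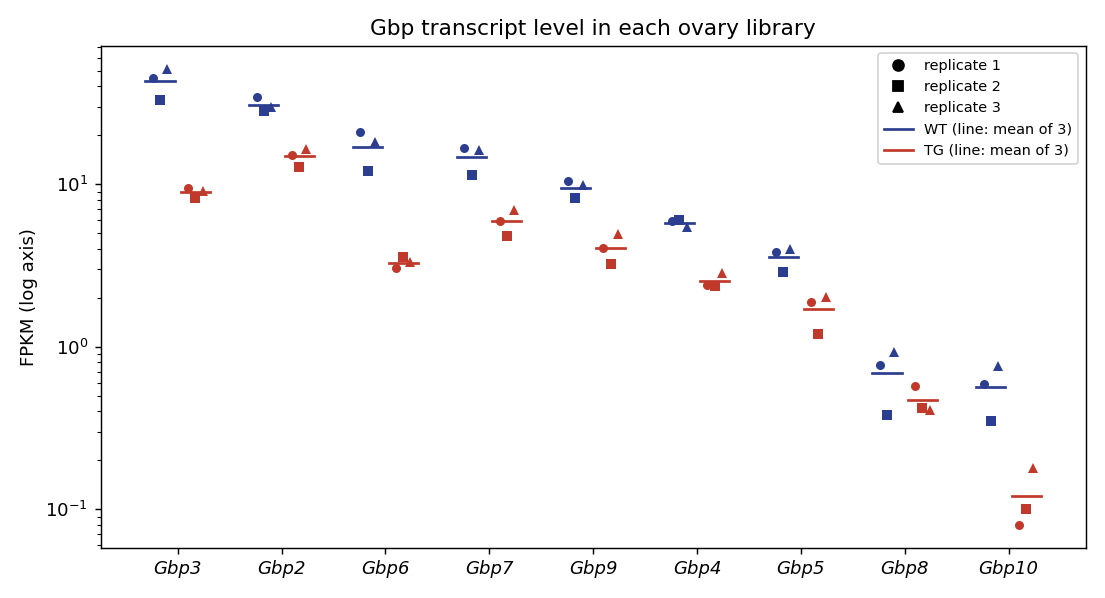
Level of each Gbp gene in FPKM (log axis) in the 3 WT and 3 TG libraries, ordered by the mean in WT. Symbols are replicates and lines are means of 3. The groups are separate for every gene except Gbp8, and the spread between WT replicates is widest for Gbp8, Gbp10, Gbp6 and Gbp3.

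Gbp3 and Gbp6 showed the deepest falls among the well-counted members. Gbp3, a member of the chromosome 3 cluster, measured 23.3, 20.6 and 22.9 CPM in the TG libraries (replicates 1 to 3 in order, here and below) against 114.7, 84.1 and 129.9 CPM in the WT libraries. The lowest WT ovary thus held more than 3 times the level of the highest TG ovary. The log2 fold change of Gbp3 was -2.30 with an SE of 0.16 and an adjusted p of 6.50e-05 in edgeR, which is 4.92-fold with a 95% interval of 3.86 to 6.26. Gbp6, of the chromosome 5 cluster, measured 12.4, 14.6 and 13.7 CPM in TG against 85.4, 50.2 and 76.2 CPM in WT. Its TG libraries lay close together, and its WT libraries were spread more widely, with replicate 2 lowest. Gbp6 fell by 2.38 on the log2 scale (SE 0.19, adjusted p = 1.35e-04 in edgeR), a 5.20-fold difference with a 95% interval of 3.88 to 6.96.

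Gbp10, the closest relative of Gbp6, had a fold change of the same order but rested on few reads. It held 4.48, 5.84 and 10.3 estimated counts in TG replicates 1 to 3 and 36.6, 21.7 and 43.8 in WT replicates 1 to 3. The groups did not overlap, but Gbp10 passed the filter on low counts only through the WT libraries. Its log2 fold change was -2.31 (SE 0.44) with an adjusted p of 0.0432 in edgeR, close to the threshold. The adjusted p rose to 0.212, 0.192 or 0.0642 without TG replicate 1, 2 or 3, to 0.162 or 0.194 without WT replicate 1 or 3, and to 0.387 without TG replicate 2 and WT replicate 3 together. It fell to 0.0181 without WT replicate 2, to 0.0296 without a filter on low counts and to 0.00518 in DESeq2, and Gbp10 passed in 7 of 14 alternatives in all. In limma-voom, which called 6 members and 0.942% of all tested genes lower, the adjusted p of Gbp10 was 0.0704.

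Gbp2, Gbp7, Gbp9 and Gbp4 fell by less, between 2.09-fold and 2.52-fold. Gbp2, a lipid-anchored GBP known for its part in resistance to the parasite Toxoplasma, measured 34.2, 29.5 and 37.8 CPM in TG against 78.0, 65.1 and 68.8 CPM in WT. Even its highest TG library stayed well under the lowest WT library. Gbp2 fell by 1.06 on the log2 scale (SE 0.11, adjusted p = 9.24e-04 in edgeR). Gbp7, which lies between Gbp5 and Gbp3, measured 31.7, 26.4 and 37.8 CPM in TG against 90.5, 62.7 and 88.1 CPM in WT, with replicate 2 lowest in both genotypes. Gbp7 fell by 1.33 (SE 0.17, adjusted p = 0.00263), and of all the alternatives the highest adjusted p was 0.0496.

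Gbp9 and Gbp4 are neighbours on chromosome 5. Gbp9 measured 20.3, 17.1 and 24.5 CPM in TG against 50.4, 43.7 and 47.8 CPM in WT. It fell by 1.20 on the log2 scale (SE 0.13, adjusted p = 0.00109 in edgeR). Gbp4 measured 8.10, 9.82 and 11.2 CPM in TG against 22.7, 22.3 and 20.4 CPM in WT. Its WT libraries were the tightest of the family relative to their mean, and it was the only member whose lowest WT library was not replicate 2. Gbp4 fell by 1.17 (SE 0.14, adjusted p = 0.00194 in edgeR).

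Gbp5 and Gbp8 did not pass the test. Gbp5, a lipid-anchored GBP that promotes inflammasome assembly, measured 5.27, 3.45 and 5.77 CPM in TG against 10.8, 8.26 and 11.5 CPM in WT, without overlap. Its log2 fold change of -1.08 (SE 0.22, 95% interval -1.57 to -0.58) was as large as that of Gbp2, at an adjusted p of 0.0720 in edgeR. Gbp5 passed in DESeq2 (adjusted p = 0.00114), in which 8 of the 9 members were lower and 1.27% of the tested genes were called lower. It also passed without a filter on low counts (0.0413) and without WT replicate 2 (0.0383). Gbp8 measured 1.39, 1.21 and 1.17 CPM in TG against 1.94, 0.93 and 2.58 CPM in WT, and WT replicate 2 lay below every TG library. With 17.04 to 44 estimated counts per library, its log2 fold change of -0.53 had an adjusted p of 0.9997 in edgeR and a 95% interval of -1.36 to 0.31, which holds both 0 and the value of Gbp2. Gbp2b, a gene formerly called Gbp1 that falls outside the naming rule, held 1 to 3 counts in TG and 4 to 8 counts in WT and was too low to be tested.

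Levels per length ordered the family differently in the 2 genotypes. In WT, Gbp3 was highest at 43.1 ± 9.43 FPKM, followed by Gbp2 at 30.8 ± 3.13 FPKM (SD, n = 3 each). Gbp6 came next, with 20.9, 11.98 and 18.2 FPKM in WT replicates 1 to 3, then Gbp7 at 14.8 ± 2.90 and Gbp9 at 9.5 ± 1.11 FPKM. Gbp4 at 5.80 ± 0.31, Gbp5 at 3.57 ± 0.61, Gbp8 at 0.69 ± 0.28 and Gbp10 at 0.57 ± 0.21 FPKM completed the order. The WT ranges of Gbp3 and Gbp2 overlapped, as did those of Gbp6 and Gbp7 and those of Gbp8 and Gbp10, so these neighbours were not separated beyond their spread. In TG, Gbp2 was highest at 14.9 ± 1.95 FPKM, followed by Gbp3 at 8.90 ± 0.64, Gbp7 at 5.90 ± 1.08, Gbp9 at 4.07 ± 0.87 and Gbp6 at 3.30 ± 0.26 FPKM. Gbp4 at 2.54 ± 0.28, Gbp5 at 1.7 ± 0.45, Gbp8 at 0.47 ± 0.09 and Gbp10 at 0.12 ± 0.05 FPKM followed. The TG ranges of Gbp7 and Gbp9 overlapped, as did those of Gbp9 and Gbp6, while the other neighbours were apart. The lowest TG library for Gbp2, at 12.7 FPKM, lay above the highest for Gbp3, at 9.42 FPKM. The FPKM of Gbp6 imply a length of 4069 to 4171 bases, whereas its longest GENCODE transcript has 2604. In CPM per kilobase of the longest GENCODE transcript, Gbp6 measured 5.21 ± 0.42 in TG, above Gbp9 at 4.71 ± 0.84, with overlapping ranges, and 27.1 ± 7.02 in WT, where its range overlapped that of Gbp2 at 28.1 ± 2.65 (SD, n = 3 each). The places of Gbp6 and Gbp9 in TG therefore depend on the length used.

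The make-up of the GBP transcripts therefore differed between the genotypes. Gbp3 supplied 32.6%, 32.1% and 37.6% of the summed FPKM in WT replicates 1 to 3 and 22.1%, 22.4% and 19.6% in TG replicates 1 to 3. Gbp2 supplied 24.8%, 27.6% and 21.9% in WT and 35.7%, 34.8% and 35.8% in TG. Neither share overlapped between the genotypes. The shares of Gbp5, Gbp7, Gbp8 and Gbp9 were likewise larger in every TG library than in every WT library. The share of Gbp6 was 13.4% ± 1.68 in WT and 7.99% ± 1.49 in TG (SD, n = 3 each). On the log2 scale the FPKM ratio of Gbp3 to Gbp2 was 0.40, 0.22 and 0.78 in WT and -0.69, -0.64 and -0.87 in TG, and that of Gbp6 to Gbp9 was 1.0, 0.54 and 0.89 in WT and -0.41, 0.14 and -0.59 in TG. Per kilobase of GENCODE transcript the share of Gbp6 was larger, at 20.5% ± 2.29 in WT and 12.6% ± 2.04 in TG, and its log2 ratio to Gbp9 was 1.51, 0.95 and 1.42 in WT and 0.04, 0.52 and -0.09 in TG. The genotypes stayed apart in both measures. The 95% intervals of the fold change for Gbp3 and Gbp6 did not overlap those of Gbp2, Gbp4, Gbp7 and Gbp9. These pairs were picked after their values were seen, and the differences between members were not tested.

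**Figure D2:**
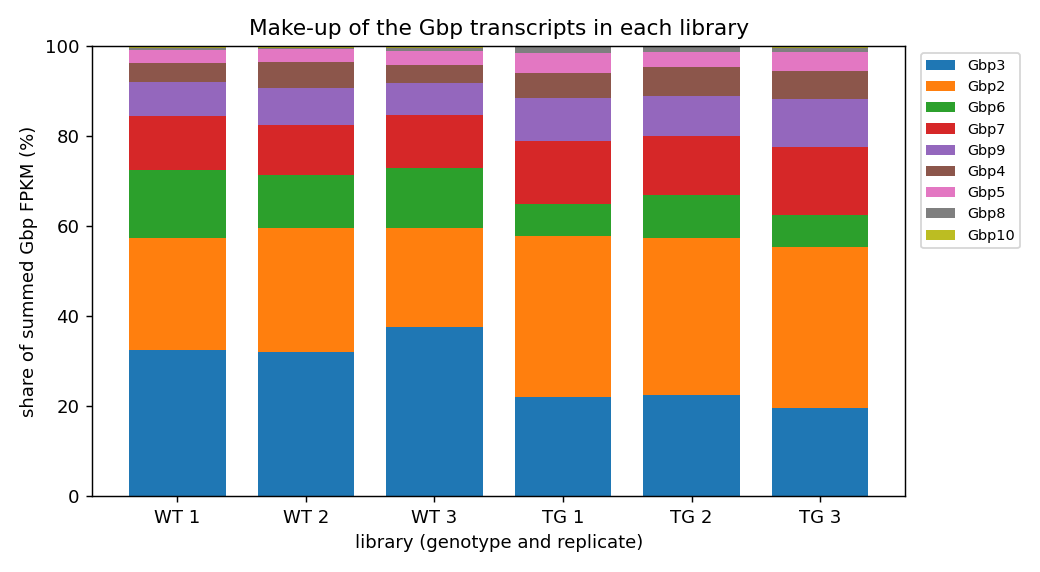
Share of each Gbp gene in the summed Gbp FPKM of each library (percent, stacked to 100). Gbp3 and Gbp6 take a larger share in the 3 WT libraries. Gbp2, Gbp5, Gbp7, Gbp8 and Gbp9 take a larger share in the 3 TG libraries.

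Both chromosomal clusters were affected, and the genes beside them were not called. On GRCm38, to which the submitters' build mm10 corresponds, Gbp5 (142496934 to 142522344), Gbp7 (142530336 to 142550151), Gbp3 (142560016 to 142573213) and Gbp2 (142620663 to 142638008) lie on chromosome 3. Gbp8 (105012513 to 105053609), Gbp9 (105076464 to 105110357), Gbp4 (105115767 to 105139586), Gbp10 (105215699 to 105239533) and Gbp6 (105270702 to 105295871) lie on chromosome 5. In the chromosome 3 cluster 3 of 4 members fell, with a median log2 fold change of -1.20, and in the chromosome 5 cluster 4 of 5 fell, Gbp10 with its few reads among them, with a median of -1.20. Members of the chromosome 5 cluster supplied 26.6% ± 1.09 of the summed FPKM in WT and 25.1% ± 1.27 in TG (SD, n = 3 each), with overlapping ranges. Per kilobase of GENCODE transcript, described above, these shares were 33.6% ± 1.34 and 30.5% ± 2.13, and their ranges were only just apart. The lowest WT share was 32.77%, in replicate 3, and the highest TG share was 32.72%, in replicate 2. On chromosome 3 the deeply lowered Gbp3 lay between Gbp7 and Gbp2, which fell by less. On chromosome 5 Gbp6 and Gbp10, whose log2 fold changes were close to that of Gbp3, were neighbours. The counts of Gbp6 and Gbp10 cannot be fully separated, as described below, so their fold changes are not independent.

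The 3 nearest tested genes on each side of each cluster, 12 in all, lay 29.7 to 662 kb from the members. None of the 3 tools (edgeR, DESeq2, limma-voom) called any of them, 0 in each, and 1, Kyat3, had an unadjusted p under 0.05 in edgeR, with log2 fold changes between -0.42 and 0.33 and a lowest adjusted p of 0.934. On chromosome 3 the closest were Pdlim5, which encodes a PDZ and LIM domain protein, at 70.5 ± 11.2 CPM in TG against 72.9 ± 9.65 CPM in WT, and Kyat3, which encodes a kynurenine aminotransferase, at 30.4 ± 2.23 and 24.7 ± 3.08 CPM (SD, n = 3 each). On chromosome 5 the transporter gene Abcg3 had a log2 fold change of -0.42 (SE 0.45) at about 2 CPM, and the volume-regulated channel subunit gene Lrrc8b had -0.02 (SE 0.11).

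**Figure D3:**
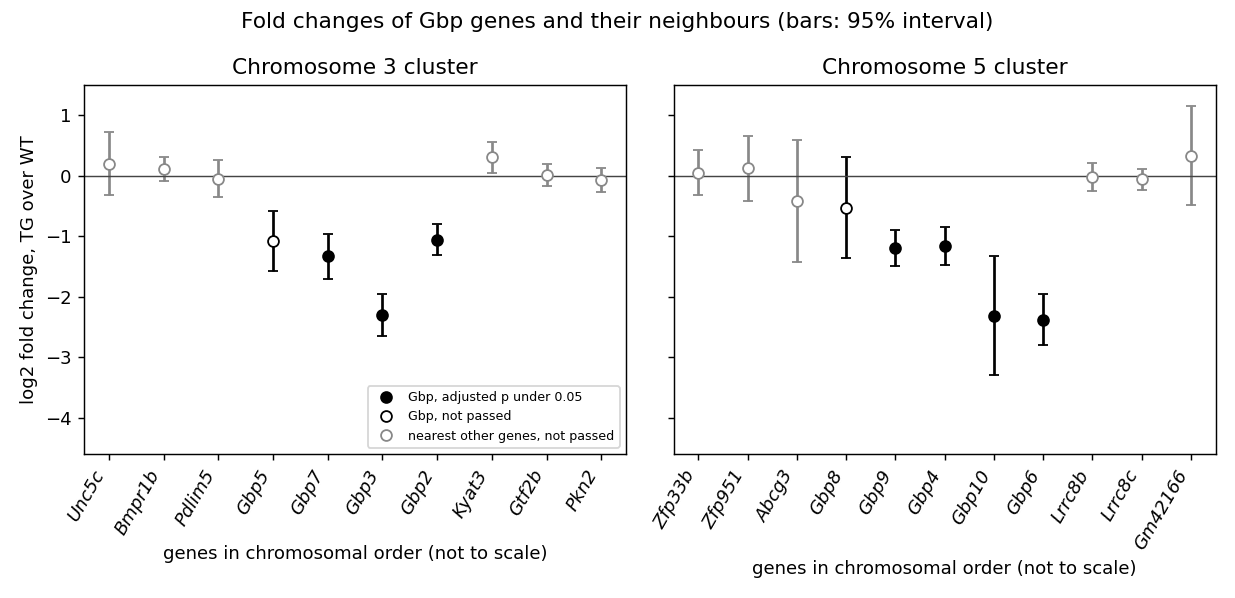
Log2 fold change (TG over WT) with its 95% interval for the Gbp genes and the 3 nearest tested genes on each side, in chromosomal order and not to scale. Filled points passed at an adjusted p under 0.05. The Gbp genes lie below 0 in both clusters and the 12 neighbours lie between -0.42 and 0.33.

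Sequence similarity within the family limits how far some members can be told apart. Coding sequences of the 5 chromosome 5 members were 89.7% to 98.4% identical to each other over the aligned positions of GENCODE transcripts. On chromosome 3, Gbp3 and Gbp7 were 78.3% identical, Gbp2 and Gbp5 68.7%, and Gbp2 and Gbp3 63.6%. Gbp6 and Gbp10 were the most similar pair at 98.4%. Of all 100-base stretches in the Gbp6 transcript 46.7% also occurred in another Gbp transcript, and for Gbp10 it was 57.0%. For each other member the share was at most 3.81%. Of 50-base stretches the shared part was larger, at 70.3% for Gbp6, 73.9% for Gbp10, 21.2% for Gbp8, 11.9% for Gbp4 and 9.56% for Gbp9, and at most 3.83% for Gbp2, Gbp3, Gbp5 and Gbp7. The read length is not given in the sources used here. Counts of Gbp6 and Gbp10 held fractions in each of the 6 libraries, as when reads that fit both genes are divided, whereas those of Gbp2, Gbp3, Gbp4, Gbp5 and Gbp7 were whole in all 6. Summed as 1 gene, Gbp6 and Gbp10 measured 13.96 ± 1.18 CPM in TG against 72.5 ± 18.8 CPM in WT (mean ± SD, 3 animals per genotype) and fell by 2.38 on the log2 scale (SE 0.19, adjusted p = 1.35e-04 in edgeR). The split between Gbp6 and Gbp10 is therefore uncertain, while the fall of their sum does not depend on it.

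Libraries of the same genotype differed in a similar way across the family. WT replicate 2 had the lowest WT CPM for 8 of the 9 members and the highest for 0, while the highest was WT replicate 1 for 5 members and WT replicate 3 for 4. In TG, replicate 3 was highest for 6 members and replicate 2 lowest for 5. The summed IRG level was likewise lowest in WT replicate 2, at 483 CPM against 588 and 664 CPM in WT replicates 1 and 3. Summed macrophage and myeloid markers were also lowest there, at 400.4 CPM against 547.5 and 643.5 CPM. Of these markers Ptprc, Adgre1 and Itgam were lowest in WT replicate 3 and Cd14 in WT replicate 1. The summed oocyte, adipocyte and oviduct markers were lowest in WT replicate 2 as well, although Ddx4 and Fabp4 were lowest in WT replicate 1. Summed theca and endothelial markers were highest in WT replicate 2, the latter at 929.2 CPM against 757.0 and 689.3 CPM in WT replicates 1 and 3. Of these markers Cyp17a1, Insl3 and Vwf were nevertheless lowest in WT replicate 2. Among 12692 other genes whose mean reached 2 CPM, those with the pattern closest to the family's summed CPM were Siglec1, Irgm2, Sp100, Parp14, Ddx58 and Trim34a. Closeness was the root-mean-square distance of log2 CPM over the 6 libraries after centring each gene on its mean, and it ran from 0.06 to 0.10 for these 6. Siglec1, a macrophage surface lectin, measured 7.99, 7.52 and 9.16 CPM in TG against 29.3, 18.9 and 26.1 CPM in WT. Irgm2, a regulatory IRG, measured 33.2 ± 3.97 CPM in TG against 94.2 ± 14.2 CPM in WT (mean ± SD, 3 animals per genotype). Ddx58, which encodes the RNA sensor RIG-I, measured 44.7 ± 6.12 and 145.5 ± 25.9 CPM. Within the family Gbp7 lay closest to the sum, at 0.14, and Gbp8 farthest, at 0.67. Each member is itself part of the sum, so this order partly reflects how much it adds.

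In a list of regulators of interferon responses or of GBP genes, Irf9, Stat2 and Nlrc5 fell, whereas the receptor and kinase genes did not pass. Whether these falls came before those of the GBP genes was not tested. Of 17 tested genes in this list 3 fell, 0 rose and 5 had an unadjusted p under 0.05, with a median log2 fold change of -0.13. Over all tested genes, 1.02% fell and 0.0354% rose. Irf9, whose product is the DNA-binding subunit of the complex at ISRE sites, measured 38.5, 42.4 and 41.8 CPM in TG against 109.5, 103.2 and 124.5 CPM in WT. Every TG library lay below every WT library, and Irf9 fell by 1.46 on the log2 scale (SE 0.10, adjusted p = 5.78e-05 in edgeR). Stat2, whose product is part of the same complex, had a log2 fold change of -1.30 (SE 0.15). Nlrc5, the activator of MHC class I genes, was at -1.39 (SE 0.19). The interferon-gamma receptor genes Ifngr1 and Ifngr2 had log2 fold changes of -0.06 and -0.13, the type I receptor genes Ifnar1 and Ifnar2 had -0.04 and -0.02, and Jak1 and Jak2 had 0.07 and -0.03. Irf1, which encodes a transcription factor known to drive GBP genes, measured 35.0 CPM in TG against 41.0 CPM in WT on average, and its log2 fold change of -0.23 (SE 0.09) had an adjusted p of 0.959 in edgeR. Batf2 did not pass either (adjusted p = 0.12 in edgeR), but its log2 fold change was -1.30 (SE 0.29). It measured 1.18 CPM in TG against 2.92 CPM in WT on average, without overlap. Ifng itself was too low to be tested, at 0.06 and 0.15 CPM on average, and Ifnb1 was not analysed here. Genes outside Irf9, Stat2 and Nlrc5 were named here after their values were seen.

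Most of the IRG genes, partners of GBPs in defence, fell. Of 11 tested, 9 fell and 0 rose, with a median log2 fold change of -1.95. Over all tested genes, 1.02% fell and 0.0354% rose. Tgtp2 fell from 65.7 ± 10.4 to 15.4 ± 1.71 CPM, Igtp (Irgm3) from 57.8 ± 9.52 to 14.9 ± 1.44 CPM and Tgtp1 from 19.2 ± 1.78 to 3.89 ± 0.54 CPM (SD, n = 3 each). Counts of Tgtp1 and Tgtp2 were not whole numbers in any library, so their split is uncertain. The 2 that did not pass were F830016B08Rik at -0.99 (SE 0.56) and Irgq at -0.02 (SE 0.09). Of 11 tested genes known to be induced by interferon-gamma, 5 fell and 0 rose, with a median of -1.08. The shares over all tested genes were again 1.02% and 0.0354%. The immunoproteasome subunit gene Psmb8 fell by 1.37 on the log2 scale (SE 0.10), the chemokine gene Cxcl10 fell by 1.71 (SE 0.13) and the peptide transporter gene Tap1 fell by 1.17 (SE 0.09). The other 6 did not pass. Of these, Cxcl9, another interferon-induced chemokine gene, was at -1.08 (SE 0.44), Cd274 at -1.265 and Serping1 at -0.37. Cd74 was at -0.16, Wars at 0.01 and Nos2 at 0.16, so the list was divided.

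In 4 further lists, of genes that act with GBPs or are related to them, edgeR, DESeq2 and limma-voom each called 0 genes. Of 10 tested inflammasome and pyroptosis genes 0 passed, with a median of -0.22 and 1 of 10, Casp4, at an unadjusted p under 0.05. Its product is the protease that senses cytosolic lipopolysaccharide, and Casp4 had a log2 fold change of -0.66 (SE 0.25). The most abundant of this list were Ninj1, needed for membrane rupture, at -0.12 (SE 0.10) and the cytokine gene Il18 at 0.16 (SE 0.19). Of the 6 prenylation and CaaX-processing genes, which supply the lipid anchor of some GBPs, 0 passed and 0 had an unadjusted p under 0.05, with a median of 0.05 and Pggt1b at 0.06 (SE 0.10). The 10 genes of the ATG8 conjugation system, which guides GBPs to vacuoles, had 0 called, 0 at an unadjusted p under 0.05 and a median of -0.04, with Gabarap at -0.04 (SE 0.09). Atlastins and other dynamin-type GTPases, relatives of the GBPs, had 0 of 10 called, 0 at an unadjusted p under 0.05 and a median of 0.03, with Atl3 at -0.02 (SE 0.09) and Dnm2 at 0.00 (SE 0.09). Mx1 and Mx2 were also on this list of 12 but were not analysed here, so these values say nothing of them.

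**Figure D4:**
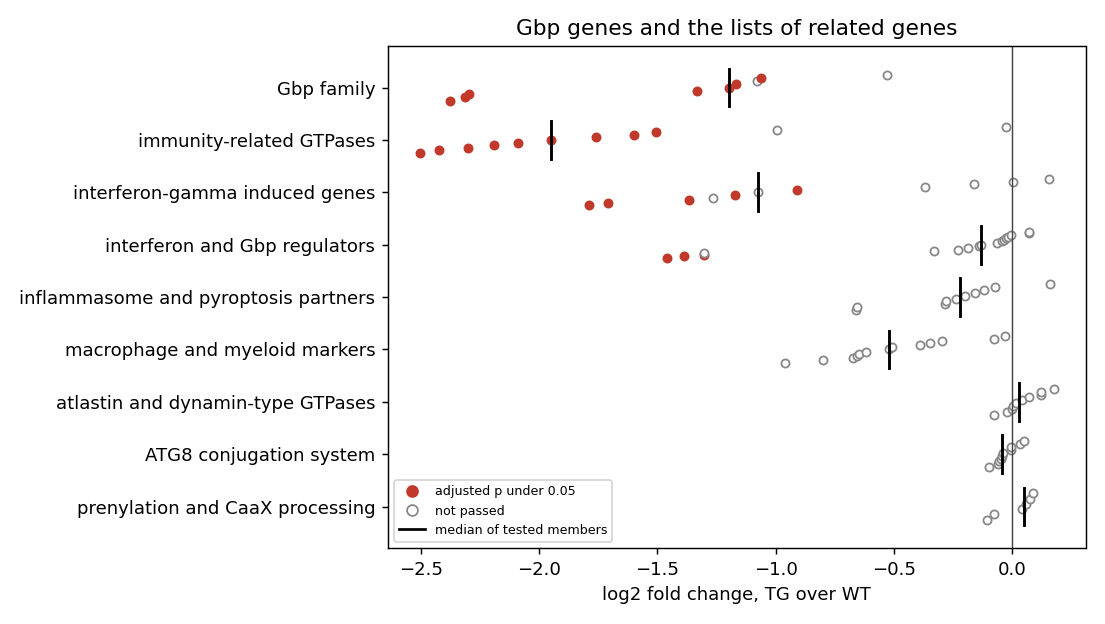
Log2 fold change (TG over WT) of every tested gene in the Gbp family and in 8 lists of related genes, 1 row per list, with black lines at the medians. Filled red points passed at an adjusted p under 0.05, and they occur in the Gbp family (7), the IRGs (9), the interferon-gamma induced genes (5) and the regulators (3).

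Markers of cells that can make GBPs were also compared. Over all tested genes, edgeR called 1.02% lower, DESeq2 1.27% and limma-voom 0.942%. The share of all tested genes at an unadjusted p under 0.05 was not computed, so counts at that level have no reference. Of 13 macrophage and myeloid markers 0 passed in edgeR or limma-voom and 5 in DESeq2, 7 had an unadjusted p under 0.05 and all 13 log2 fold changes were below 0, with a median of -0.52 and a range of -0.96 to -0.03. Their summed level ran from 357.5 to 395.5 CPM in TG against from 400.4 to 643.5 CPM in WT, and no marker of this list was at 0 in all libraries. C1qa, a complement gene of macrophages, measured 55.2 ± 1.64 CPM in TG against 96.0 ± 28.4 CPM in WT, and Lyz2 92.5 ± 11.4 and 97.6 ± 19.6 CPM (SD, n = 3 each). Of 9 endothelial markers 0 passed in these 3 tools and 2 had an unadjusted p under 0.05, with a median of -0.16 and summed levels of 593.8 to 767.0 CPM in TG against 689.3 to 929.2 CPM in WT. Of 7 tested lymphocyte and NK cell markers 0 passed in these tools and 1 had an unadjusted p under 0.05, with a median of -0.57 and summed levels of 5.69 to 8.22 CPM in TG against 8.10 to 10.4 CPM in WT. Differences in the number of these cells were not measured, and their part in the fall of the GBP transcripts was not tested.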

How the data were processed

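Per the labels' protocols, total RNA of 3 TG and 3 WT ovaries was read on the BGISEQ-500 platform. Tools listed in the submitters' processing notes are RSEM 1.3.1, DESeq2 1.4.5 and Bowtie2, with the build mm10 and no roles. The authors deposited estimated counts per gene, per the file headers. They also deposited values identified here as FPKM: in 96 long genes with a single transcript, count divided by value and transcript length implied library totals of 95.8% to 96.0% of the summed counts. Annotation and strandedness are not given in the sources used here.

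Rounded counts went into edgeR 4.0.16 under R 4.3.3, with TMM scaling, filterByExpr (minimum count 10, total 15) and a two-sided quasi-likelihood test. P-values were adjusted by Benjamini-Hochberg over the 14124 tested genes at a threshold of 0.05, and replicates varied by 12.5% (common biological coefficient of variation). Intervals include the spread between animals. CPM use effective library sizes. Of the 18280 Entrez identifiers 18165 matched the RefSeq gene table of GRCm38.p6. Reads of overlapping or antisense genes cannot be separated.

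The family and the lists were chosen with earlier results of these data known, and 1 gene of the regulator list is not reported here. Named from each list were up to 3 called genes with the smallest p, or the 2 most abundant where fewer than 2 were called, and other genes named were chosen after their values were seen. Alternatives were other scalings and filters, a replicate block, leaving out libraries, DESeq2 1.42.0, limma 3.58.1 (voom, and trend on log2(FPKM + 1), where 3 samples reached 1 FPKM) and a log2 fold change of at least 1.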

Additional observations from a re-analysis of the deposited data

How the results depend on the processing

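The count of members that fell stayed between 6 and 8 over 17 alternatives to the 7 reported, and the count of all called genes between 119 and 202 around 149. Leaving out 1 library at a time gave 6 to 8 members and 122 to 178 genes. Gbp2, Gbp3, Gbp4, Gbp6, Gbp7 and Gbp9 passed in 16 of 16 fits each, with log2 fold changes between -2.57 and -0.94. Gbp10 passed in 7 of 14 and Gbp5 in 4 of 16. No member changed direction. The order of the levels in WT was the same for all 9 members per kilobase of the longest GENCODE transcript and without any 1 WT library. In TG, compared after the data were seen, 7 of 9 kept their place per kilobase, with Gbp6 and Gbp9 exchanged, and all 9 did without any 1 TG library. Same-numbered TG and WT libraries had correlations of their deviations from the group means of 0.23, 0.08 and 0.09, so the numbers were not taken to pair the samples, although every library correlated best with its own number. With the replicate block 8 members and 159 genes passed, and Gbp5 was among them (adjusted p = 0.0163). Gbp8 and Gbp10 did not reach the 50-count or the FPKM minimum and have no value there. The low counts of Gbp8, Gbp10 and Gbp2b limit what can be said of them. Summing Gbp6 and Gbp10 was added after the data were seen.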
